A study of Mus musculus with 10 samples.

Results

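The genes examined here are the D-type cyclins Ccnd1, Ccnd2 and Ccnd3, their kinases Cdk4 and Cdk6, and the inhibitors Cdkn1a, Cdkn1b, Cdkn1c, Cdkn2a and Cdkn2c. These 10 genes were selected by symbol from the 50559 genes counted in each library. The rule for taking them uses symbols only, but the set was proposed with earlier results of these data known. All 10 were among the 29952 genes that passed the filter on low counts and were tested. Cells in G1 commit to DNA replication when a D-type cyclin activates CDK4 or CDK6 and the active kinase phosphorylates the RB protein, which releases E2F transcription factors. INK4 proteins (Cdkn2a and Cdkn2c among them) bind CDK4 and CDK6 and keep them from their cyclins, and CIP/KIP proteins (Cdkn1a, Cdkn1b, Cdkn1c) bind cyclin-CDK complexes and chiefly block CDK2. In the early postnatal cerebellum, granule cell precursors (GCPs) divide under Sonic hedgehog (SHH) signaling, which induces D-type cyclins, and leave the cell cycle with rising CIP/KIP inhibitors as they become granule neurons.

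RNA had been taken from formalin-fixed, paraffin-embedded tissue of 4 MYC/SMARCA4 tumors, 3 SHH medulloblastomas (SHH MB) and 3 P7 cerebella. MYC/SMARCA4 tumors grew in immunodeficient CD1nu/nu hosts after transplantation of GCPs from Math1-creERT2::Smarca4fl/fl pups that had been given tamoxifen. These GCPs had been transduced with a lentivirus that carries murine Myc and GFP under a CMV promoter, and the injected mixture was not sorted for transduced cells. According to the labels, tumors 1 to 4 were taken at 112, 96, 89 and 79 days of age. P7 cerebella came from mice of the same Math1-creERT2::Smarca4fl/fl genotype, which had been injected at P3 with tamoxifen (0.4 mg) and were 7 days old. The controls thus carry the Smarca4 deletion in cells of the Math1 lineage as well, and the share of cells with the deletion was not measured in these libraries. SHH MB came from Math1-cre::Smofl/wt mice and are labelled with an age of 7 days. Tumors were sampled with tissue punches and controls as whole cerebella, so that cells other than tumor cells contribute to every library. In such bulk RNA, fewer cells of a type and less RNA per cell cannot be told apart. Age, host, transplantation and tissue sampling all differ between MYC/SMARCA4 tumors and P7 cerebella and cannot be told apart from the tumor state. Labelled age, host and transplantation also differ between MYC/SMARCA4 tumors and SHH MB and cannot be told apart from the tumor type.

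Between 5663491 and 9352109 reads were counted per library, and 3 counts, the floor used here, correspond to 0.304 to 0.737 CPM (counts per 1000000 of the TMM-normalized library size). Tumor 1 stood apart from the other tumors. A list of 10 genes of cycling cells (such as Mki67, Top2a and Mcm2) summed to 133.9 CPM in tumor 1, against 1868 to 2091 CPM in tumors 2 to 4, 809.1 to 1101 CPM in P7 cerebella and 2280 to 2732 CPM in SHH MB. Lists of 8 genes each for Purkinje cells, mature granule neurons and myelin-forming oligodendrocytes summed to 12870, 7497 and 4138 CPM in tumor 1. The highest other libraries had 3116 and 2418 CPM (both tumor 2) and 1134 CPM (P7 cerebellum 2). For Purkinje cells and mature granule neurons, tumor 4 had 2041 and 1449 CPM and tumor 3 had 378.7 and 319.1 CPM. P7 cerebella had 1309 to 1468 and 797.2 to 886.8 CPM, and SHH MB 340 to 640 and 296.7 to 400.3 CPM. Tumors 2 and 4 thus also lay above all P7 cerebella for both neuron lists, and tumor 3 below. Myc was present at 150.8 CPM in tumor 1 and at 364.6, 1574 and 1007 CPM in tumors 2 to 4, compared with 12.9 to 14.2 CPM in P7 cerebella and 33.4 to 45.4 CPM in SHH MB. Smarca4 ranged from 134.8 to 241.8 CPM in the tumors from 219.5 to 279.7 CPM in P7 cerebella and from 486.5 to 584.8 CPM in SHH MB, and its counts cover the whole gene, the deleted part included. Of the lists for other cells, that for granule cell precursors summed to 1043 to 2080 CPM in the tumors, 2162 to 2358 CPM in P7 cerebella and 3402 to 4143 CPM in SHH MB. The defining GCP gene Atoh1 had 2 counts in tumor 1, which is under the floor, and 28 to 225 counts in tumors 2 to 4. Reads of mitochondrial genes made up 6.36% of the counts in tumor 1, 2.29% to 2.94% in tumors 2 to 4 and 1.252% to 1.593% in P7 cerebella and SHH MB, and the TMM factor of tumor 1 was 0.622, the lowest of all libraries. The part of these values in the results was not tested. Comparisons of the members with the tumors are therefore given with and without tumor 1.

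**Figure D1:**
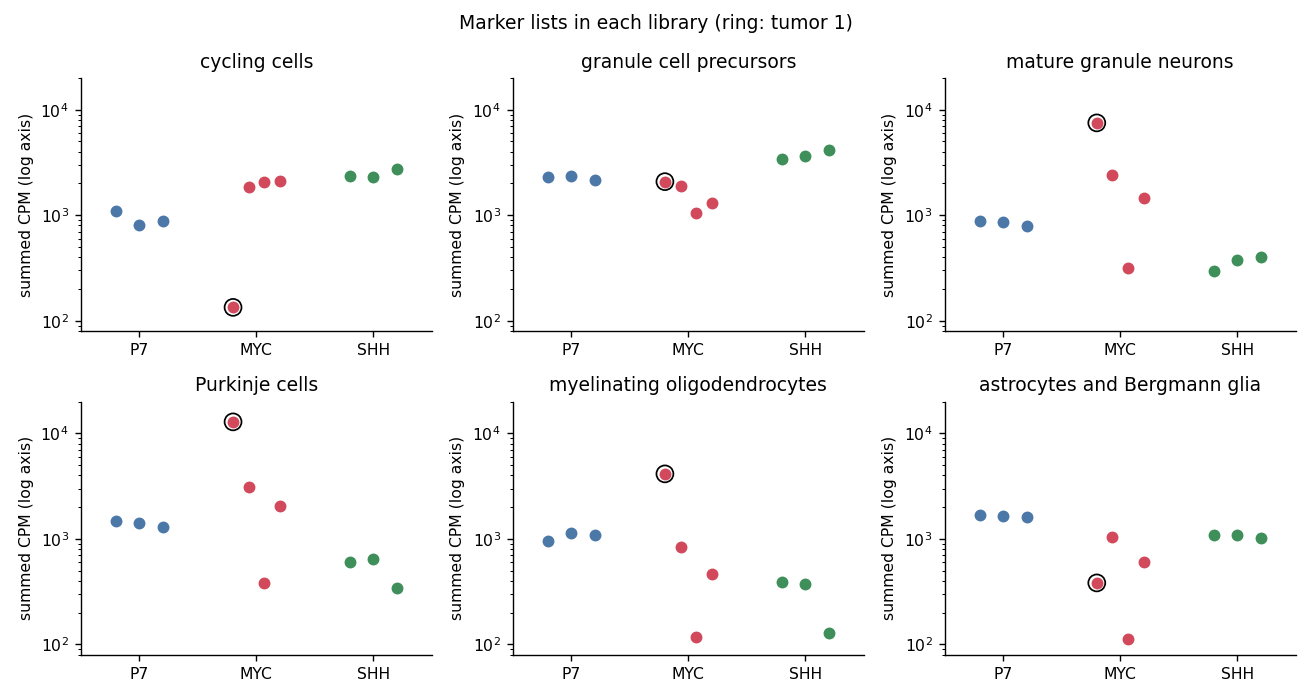
Summed level (CPM, log axis) of 6 marker lists in each library of P7 cerebella (P7), MYC/SMARCA4 tumors (MYC) and SHH MB (SHH), with a ring around tumor 1. Tumor 1 lies lowest for cycling cells (133.9 CPM) and highest for Purkinje cells, mature granule neurons and oligodendrocytes.

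With all 10 libraries, 1 of the 10 genes passed the test in each comparison (edgeR's quasi-likelihood test with Benjamini-Hochberg adjustment over all genes tested, adjusted p of at most 0.05). Against P7 cerebella, Cdkn1c was lower in MYC/SMARCA4 tumors and no member was higher, where 3.99% of all genes tested were called higher and 2.27% lower. Against SHH MB, Ccnd1 was lower in the tumors and no member was higher, with 2.43% of all genes called higher and 2.26% lower. Between SHH MB and P7 cerebella, Ccnd1 was higher in SHH MB, with 0.177% of all genes called higher and 0.0467% lower. The median log2 fold change of the 10 genes was 0.01 against P7 cerebella, -0.01 against SHH MB and 0.31 for SHH MB over P7 cerebella, beside -0.05, 0.01 and -0.09 for all genes.

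More members passed the test without tumor 1. Against P7 cerebella, Cdk4 and Cdk6 were then higher and Cdkn1a and Cdkn1c lower in tumors 2 to 4, where 9.64% of all 29877 genes tested were called higher and 6.11% lower. Against SHH MB, Ccnd1, Cdk6, Cdkn1a and Cdkn1c were lower, with 5% of all genes called higher and 4.75% lower. Ccnd1 and Cdk6 were higher in SHH MB than in P7 cerebella, with 2.86% of all genes called higher and 1.19% lower, and the other 8 members had adjusted p of 0.0996 to 0.991. The share of called genes thus also rose over the whole table. In these fits the median of all genes shifted to -0.25 against P7 cerebella and -0.15 against SHH MB, and the median of the members was 0.03 and -0.53, respectively.

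**Figure D2:**
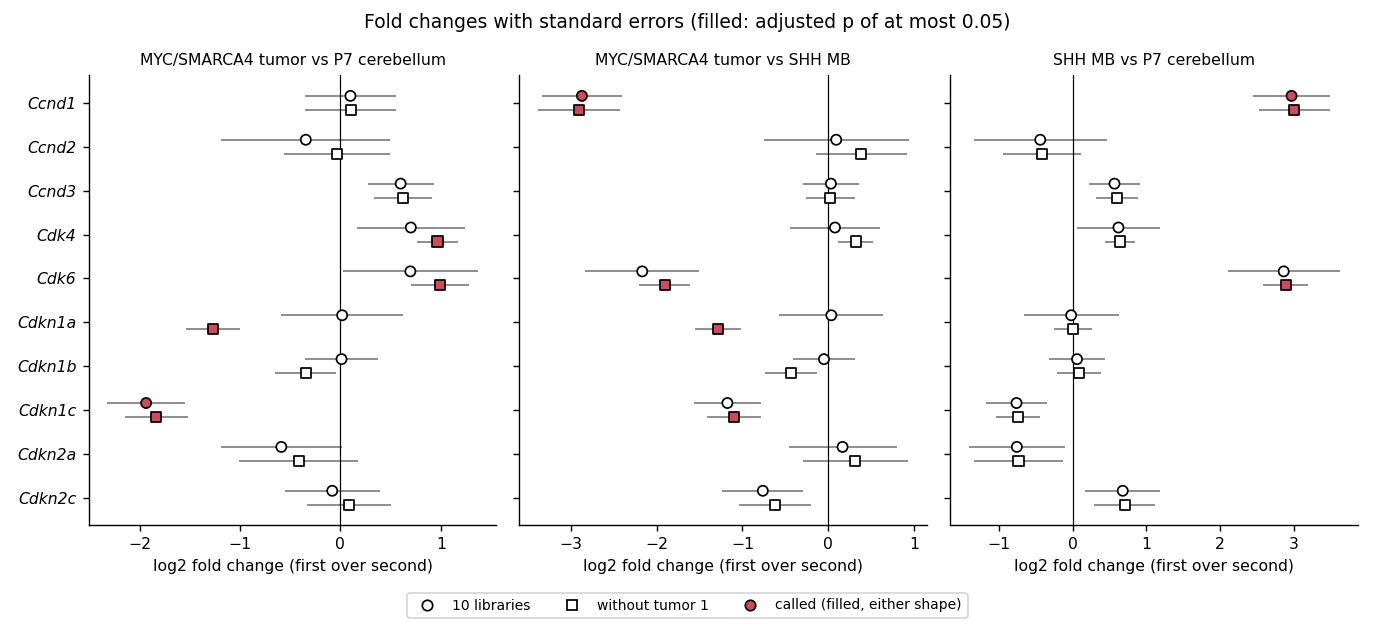
Log2 fold changes of the 10 genes (first group over second) with their standard errors in the 3 comparisons, from all 10 libraries (circles) and without tumor 1 (squares), with filled symbols for an adjusted p of at most 0.05. Ccnd1 is filled in both fits wherever SHH MB take part, and Cdk4, Cdk6 and Cdkn1a against P7 cerebella are filled without tumor 1 only.

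Ccnd1 encodes cyclin D1, the D-type cyclin that SHH signaling is best known to induce in GCPs. Its gene lies on chromosome 7 of GRCm39 from 144483668 to 144493662 on the minus strand. It was measured at 340.5, 447.9 and 557.2 CPM in SHH MB 1 to 3 and at 53.7, 52.6 and 65.1 CPM in P7 cerebella 1 to 3. MYC/SMARCA4 tumors 1 to 4 had 47.2, 28.2, 36.6 and 132.3 CPM. Every SHH MB thus lay above all other libraries, and the tumors spread around the P7 cerebella, with tumor 4 above and tumors 1 to 3 below all of them. The log2 fold change was 2.97 ± 0.52 (SE) for SHH MB over P7 cerebella (a 7.85-fold difference, adjusted p 0.0402 by edgeR) and -2.87 ± 0.47 for tumors over SHH MB (7.33-fold, adjusted p 0.00485). Leaving out any library of SHH MB or P7 cerebella ended the call between these groups (adjusted p up to 0.309), whereas the call against the tumors held in all 19 alternatives. Without SHH MB 1, 6 of all 32205 genes were called between SHH MB and P7 cerebella, and without any other of these libraries 0 genes. The loss was thus one of the whole table. Without tumor 1 the log2 fold changes were 3.01 ± 0.48 (adjusted p 0.00565) and -2.91 ± 0.48 (adjusted p 0.00225), in the same order. Tumors and P7 cerebella differed by 0.10 ± 0.46 (adjusted p 0.898), although the mean of the log2 levels was lower in the tumors (5.66 ± 0.97, SD, n = 4) than in P7 cerebella (5.84 ± 0.17, SD, n = 3). The comparisons with SHH MB share the same 3 libraries. GENCODE places LTO1 on the opposite strand across 2315 of the 4783 exonic bases of Ccnd1, and the strand setting of the counting step is not given in the sources used here.

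Ccnd2 encodes cyclin D2, which GCPs also express. It is located on chromosome 6 from 127102125 to 127129156 on the minus strand. Its level was 1060, 674.8 and 823.1 CPM in P7 cerebella and 653.7, 660.7 and 572.7 CPM in SHH MB. In the tumors it ranged over more than any other member, with 27.5 CPM in tumor 1, 1658 CPM in tumor 2, 813.4 CPM in tumor 3 and 185.2 CPM in tumor 4. Tumors 1 and 4 therefore fell below all P7 cerebella and all SHH MB, and tumor 2 lay above them. The log2 level in the tumors was 8.17 ± 2.61 (SD, n = 4), and neither the difference from P7 cerebella (-0.35 ± 0.84, SE, adjusted p 0.801 by edgeR) nor that from SHH MB (0.09 ± 0.85, adjusted p 0.965) passed the test. Without tumor 1 they were -0.03 ± 0.53 (adjusted p 0.972) and 0.38 ± 0.53 (adjusted p 0.746). All SHH MB were below all P7 cerebella (-0.44 ± 0.90, adjusted p 0.939).

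Ccnd3, the gene of cyclin D3, is on chromosome 17 from 47815767 to 47910624 on the plus strand and was the lowest of the D-type cyclins per kb of exon in every library. It had 15.2, 15.6 and 18.8 CPM in P7 cerebella, 24.1, 22.3 and 27.2 CPM in SHH MB and 18.2, 24.8, 15.7 and 41.2 CPM in the tumors. SHH MB lay above P7 cerebella in all libraries, and tumors overlapped with both groups. The differences were 0.60 ± 0.33 (SE) for tumors over P7 cerebella (adjusted p 0.263 by edgeR), 0.03 ± 0.32 for tumors over SHH MB (adjusted p 0.97) and 0.57 ± 0.35 for SHH MB over P7 cerebella (adjusted p 0.694) on the log2 scale. Without tumor 1, the tumors differed from P7 cerebella by 0.62 ± 0.29 (adjusted p 0.165) and from SHH MB by 0.03 ± 0.28 (adjusted p 0.972).

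**Figure D3:**
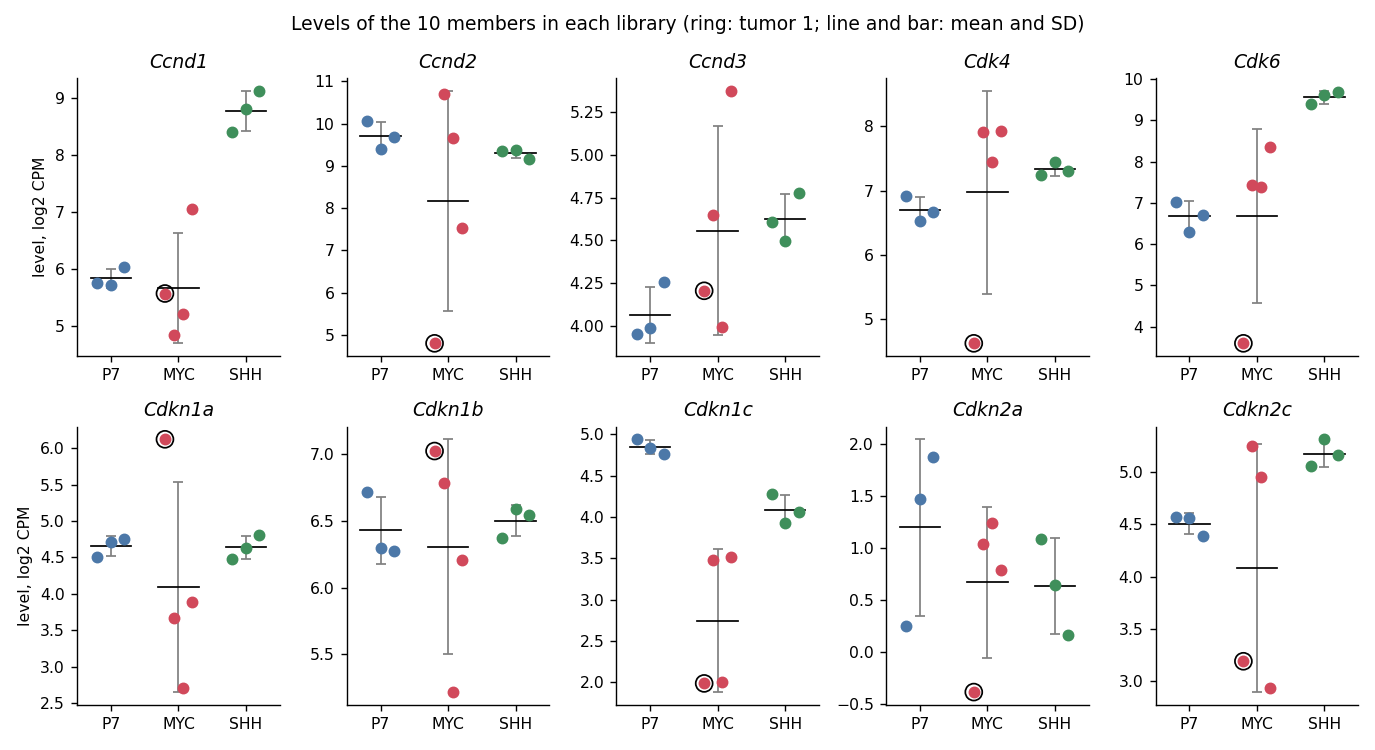
Level (log2 CPM, prior count of 2) of each gene in each library of P7 cerebella (P7), MYC/SMARCA4 tumors (MYC, tumor 1 ringed) and SHH MB (SHH), with group means (lines) and SD (bars); each panel has its own axis, which does not start at 0. The 3 SHH MB stand above all other libraries for Ccnd1 and Cdk6, and the 4 tumors below all others for Cdkn1c.

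To ask which D-type cyclin predominated, levels were divided by the exonic length of each gene (4.783 kb for Ccnd1, 9.409 kb for Ccnd2, 9.245 kb for Ccnd3). Each length joins all exons that GENCODE lists for the gene. Which transcripts were expressed was not examined, and all shares per kb given here depend on these lengths. In P7 cerebella, Ccnd2 made up 89.7%, 85.0% and 84.8% of the summed CPM per kb of the D-type cyclins. In SHH MB it made up 48.5%, 42.2% and 33.8%, and Ccnd1 the larger part of the remainder (49.7%, 56.3% and 64.6%). MYC/SMARCA4 tumors fell on either side. Ccnd2 held 95.4% in tumor 2 and 90.2% in tumor 3, whereas Ccnd1 was ahead in tumor 1 (66.8%, with Ccnd2 at 19.8%) and tumor 4 (53.4%, with Ccnd2 at 38.0%). The log2 ratio of Ccnd1 to Ccnd2 CPM was 0.77, -5.86, -4.46 and -0.48 in tumors 1 to 4. It was -3.88 ± 0.36 (SD, n = 3) in P7 cerebella and -0.51 ± 0.45 (SD, n = 3) in SHH MB. SHH MB were higher than P7 cerebella in all libraries, by 3.36 (two-sided exact permutation test, p = 0.1, the smallest that 3 against 3 libraries allow, adjusted p = 0.4 over 12 values). Neither comparison with the tumors separated the groups (exact p = 0.457 against P7 cerebella and 0.4 against SHH MB, where 4 against 3 libraries allow 0.0286, both with an adjusted p of 0.655). Without tumor 1 the difference was 0.27 from P7 cerebella and -3.09 from SHH MB. The sum of the D-type cyclins in CPM overlapped between the groups in all comparisons (exact p = 0.486, 0.343 and 0.2, adjusted p 0.6 to 0.655). Without tumor 1, the log2 sum in the tumors differed from P7 cerebella by -0.17 and from SHH MB by -0.44.

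**Figure D4:**
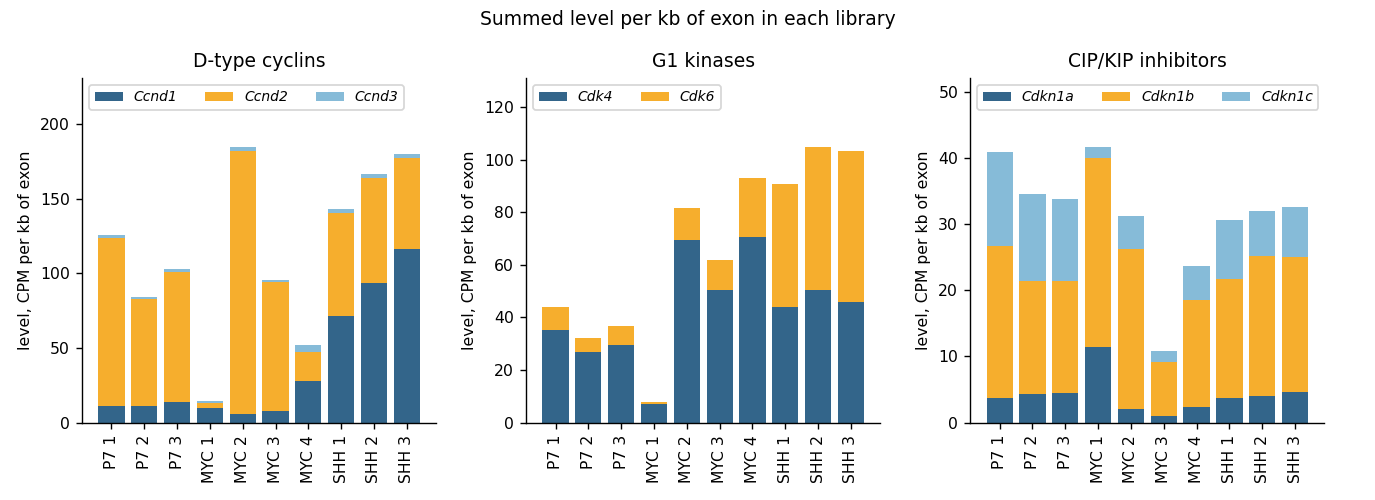
Stacked levels (CPM per kb of exon, axis from 0) of the D-type cyclins, the G1 kinases and the CIP/KIP inhibitors in each library of P7 cerebella (P7), MYC/SMARCA4 tumors (MYC) and SHH MB (SHH). Ccnd2 takes most of the bar in P7 cerebella and tumors 2 and 3, Cdk6 takes 51.3% to 55.5% of the kinase bar in SHH MB, and tumor 1 has the smallest bar for cyclins and kinases.

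Cdk4 encodes the kinase partner of D-type cyclins that is most widely used, and is a known target gene of MYC. RefSeq's promoter table held windows for 7 of the 10 genes (Ccnd3, Cdk4, Cdk6, Cdkn1a, Cdkn1b, Cdkn2a, Cdkn2c). In the 250 bases before each listed start, the E-box CACGTG, the preferred binding sequence of MYC and its partner MAX, was searched, which reads the same on both strands. It occurred in 1978 of 32851 windows of all genes (6.02%) and at least 4 times in 7 of them (0.0213%). The Cdk4 window is among the latter, with E-boxes beginning at positions -172, -118, -98 and -11 from the start. The Cdk6 window held 1 E-box at position -220, and no other member window held any. Both are shown 5′ to 3′ on the plus strand with E-boxes in capitals, as the member windows that held an E-box. The sequences are RefSeq's (GRCm38.p6) and were placed on GRCm39 by exact match. The Cdk4 window is chr10:126899154-126899403, and GENCODE lists longer transcripts that start further upstream, with exons over 29 bases of the window. Of the Cdk6 window, the 89 bases before the first annotated exon within it are shown (chr5:3393643-3393731).
Cdk4: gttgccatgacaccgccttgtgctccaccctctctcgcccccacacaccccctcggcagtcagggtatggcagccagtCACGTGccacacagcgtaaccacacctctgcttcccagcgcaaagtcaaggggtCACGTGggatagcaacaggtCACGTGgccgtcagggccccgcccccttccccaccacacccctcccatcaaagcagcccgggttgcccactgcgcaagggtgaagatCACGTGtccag
Cdk6: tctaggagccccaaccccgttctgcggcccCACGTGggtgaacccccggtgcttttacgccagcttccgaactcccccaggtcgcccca
A match describes these letters only, and binding of MYC was not measured in these libraries.

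The gene Cdk4 spans 126895180 to 126903789 on chromosome 10, plus strand. It was measured at 239.3, 173.5 and 242.9 CPM in tumors 2 to 4 and at 24.3 CPM in tumor 1. P7 cerebella had 120.9, 92.0 and 101.0 CPM and SHH MB 151.8, 173.7 and 157.9 CPM. Tumors 2 to 4 were above all P7 cerebella and tumor 1 below all other libraries. With all libraries, the log2 fold change against P7 cerebella was 0.70 ± 0.54 (SE, adjusted p 0.407 by edgeR), and without tumor 1 it was 0.97 ± 0.20 (1.96-fold, adjusted p 0.00694). Against SHH MB the tumors did not pass the test with tumor 1 (0.08 ± 0.53, adjusted p 0.952) or without it (0.32 ± 0.20, adjusted p 0.409). Low Cdk4 in tumor 1 went with the low sum of its cycling-cell list. The higher Cdk4 of tumors 2 to 4 over P7 cerebella likewise went with a higher sum of that list (1868 to 2091 against 809.1 to 1101 CPM). Without tumor 1, 8 of its 10 genes were called higher and none lower, beside 9.64% and 6.11% of all genes. Their median log2 fold change was 1.21. With all libraries none of the 10 was called (median 0.94), and tumor 1 had been set apart in part by this same list. The part of the list in these results was not tested. Tspan31 overlaps Cdk4 on the opposite strand by 646 exonic bases.

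Cdk6, the other kinase of the D-type cyclins, lies on chromosome 5 from 3391485 to 3581008 on the plus strand. SHH MB had 670.6, 785.3 and 827.2 CPM and P7 cerebella 130.0, 78.5 and 104.5 CPM. Tumors 1 to 4 had 11.8, 173.3, 165.7 and 325.2 CPM. All SHH MB were above all other libraries, and tumors 2 to 4 lay between SHH MB and P7 cerebella. The level in SHH MB was 7.29-fold that of P7 cerebella (log2 fold change 2.87 ± 0.76, SE), which did not pass the test when all 10 libraries shared the estimate of the spread (adjusted p 0.223 by edgeR) and did so without tumor 1 (2.90 ± 0.31, adjusted p 0.000728). Tumors were lower than SHH MB by a log2 fold change of -2.17 ± 0.67 (adjusted p 0.0873), and of -1.91 ± 0.30 without tumor 1 (adjusted p 0.00153). Against P7 cerebella, the corresponding values were 0.70 ± 0.67 (adjusted p 0.507) and 0.99 ± 0.29 (1.98-fold, adjusted p 0.0362). Of the lncRNAs on the opposite strand of Cdk6, Gm29868 was also the gene whose pattern over the 10 libraries was most like that of Cdk6 (root mean square difference 0.46 on the log2 scale after centring, among 13201 genes). Its exons share 66 bases with those of Cdk6, so that reads there cannot be told apart without strand.

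The balance of the kinases separated SHH MB from the other groups. The log2 ratio of Cdk6 to Cdk4 CPM was 2.23 ± 0.13 (SD, n = 3) in SHH MB, -0.02 ± 0.18 (SD, n = 3) in P7 cerebella and -0.28 ± 0.61 (SD, n = 4) in the tumors. Tumors were below SHH MB in 4 of 4 libraries, by -2.52 (exact permutation test, p = 0.0286, the smallest possible, adjusted p = 0.343 over 12 values). SHH MB were above P7 cerebella by 2.26 in 3 of 3 libraries (exact p = 0.1, the smallest possible, adjusted p = 0.4). Between tumors and P7 cerebella the difference was -0.26 (exact p = 0.571, adjusted p = 0.655). Without tumor 1, the tumors differed by -2.27 from SHH MB and by -0.01 from P7 cerebella. Per kb of exon, Cdk4 made up 75.8% to 89.6% of the kinases in the tumors, 79.6% to 83.1% in P7 cerebella and 44.5% to 48.7% in SHH MB. The share in tumor 1 (89.6%) was the highest of all libraries, and the summed level was 7.89 CPM per kb there and 61.9 to 93.2 CPM per kb in tumors 2 to 4.

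The fit of SHH MB and P7 cerebella alone, without the spread between the tumors, called 7 of the 10 genes, 5 higher and 2 lower in SHH MB, where 13.4% of the 29018 genes tested were called higher and 10.3% lower. Ccnd1 (3.00 ± 0.15, SE), Cdk6 (2.89 ± 0.15), Cdk4 (0.64 ± 0.12), Ccnd3 (0.59 ± 0.17) and Cdkn2c (0.70 ± 0.15) were higher in SHH MB on the log2 scale. Their adjusted p were 6.75e-14, 9.33e-14, 0.000203, 0.0111 and 0.000831 by edgeR. Ccnd2 (-0.42 ± 0.14, adjusted p 0.027) and Cdkn1c (-0.74 ± 0.17, adjusted p 0.00116) were lower. Sizes were close to those of the fit of all libraries, and their standard errors were smaller.

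Of the CIP/KIP inhibitors, Cdkn1c encodes p57, an imprinted inhibitor that marks cells leaving the cycle in many tissues. It is situated on chromosome 7 from 143012069 to 143014806 on the minus strand. It was found at 30.4, 28.2 and 26.9 CPM in P7 cerebella, at 19.1, 14.96 and 16.3 CPM in SHH MB and at 3.69, 10.9, 3.75 and 11.1 CPM in tumors 1 to 4, where it rests on 15, 61, 27 and 92 counts. The groups did not overlap in any comparison, with tumors lowest and P7 cerebella highest. The difference between tumors and P7 cerebella was -1.94 ± 0.39 (SE) on the log2 scale (3.83-fold lower, adjusted p 0.0166 by edgeR), and -1.84 ± 0.31 (adjusted p 0.00209) without tumor 1. In the fit of the tumors and P7 cerebella alone it had an adjusted p of 0.073, with a log2 fold change of -2.04 ± 0.45. Over 19 alternatives the adjusted p lay between 0.000253 and 0.0808, and leaving out any P7 cerebellum ended the call. Without P7 cerebellum 1, 2 or 3, the genes called lower over the whole table numbered 206, 160 and 159, against 680 with all libraries. Against SHH MB, tumors differed by -1.18 ± 0.39 (adjusted p 0.11) and by -1.10 ± 0.31 without tumor 1 (adjusted p 0.0458). SHH MB were below P7 cerebella by -0.76 ± 0.41 (adjusted p 0.643). The 8 genes of astrocytes and Bergmann glia summed to 113 to 1052 CPM in the tumors, 1032 to 1096 CPM in SHH MB and 1629 to 1672 CPM in P7 cerebella, with overlap of tumors and SHH MB. The 8 genes of the choroid plexus summed to 82.6 to 208.8 CPM in the tumors, 715 to 1330 CPM in P7 cerebella and 387.5 to 1480 CPM in SHH MB, so that the tumors lay below both other groups in all libraries. Of these, Ttr, the transthyretin gene that marks choroid plexus epithelium, was 480.1-fold lower in the tumors than in P7 cerebella (adjusted p 0.000274 by edgeR). Ttr was the only 1 of the 8 choroid plexus genes that was called. The median log2 fold change of the 8 was -1.40, and 2 of them were above 0. The part of either list in the Cdkn1c result was not tested. GENCODE lists the lncRNA Gm44732 across 625 of the 2155 exonic bases of Cdkn1c on the opposite strand.

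Cdkn1a encodes p21, the inhibitor that p53 induces, and MYC is known to repress it. Upstream of its first listed start, the 250 bases chr17:29309703-29309952 of GRCm39 held 2 matches to the p53 half-site, at positions -73 and -51, shown in capitals (5′ to 3′, plus strand, RefSeq sequence). At least 1 such match was present in 7.13% of all windows, on either strand, since the consensus reads the same on both. Each match is 10 bases long. A full p53 response element holds a pair of them, and whether these 2 matches form such a pair was not examined. The share of windows with at least 2 matches was not counted.
Cdkn1a: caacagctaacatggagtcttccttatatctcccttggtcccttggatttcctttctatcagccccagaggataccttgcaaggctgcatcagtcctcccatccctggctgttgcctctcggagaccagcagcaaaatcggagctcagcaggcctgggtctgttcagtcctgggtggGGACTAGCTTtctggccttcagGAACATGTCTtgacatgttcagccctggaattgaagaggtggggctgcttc
The gene extends from 29309936 to 29319701 on chromosome 17. Tumor 1 had 69.3 CPM, the highest level of all libraries, and tumors 2 to 4 had 12.5, 6.25 and 14.5 CPM, the lowest. P7 cerebella had 22.4, 26.0 and 26.7 CPM and SHH MB 22.1, 24.4 and 27.6 CPM. Because tumor 1 and the other tumors lay on opposite sides of both control groups, the fit of all tumors gave differences near 0 (0.02 ± 0.61, SE, adjusted p 0.987 against P7 cerebella and 0.04 ± 0.61, adjusted p 0.981 against SHH MB, by edgeR). Without tumor 1, Cdkn1a was lower in tumors than in P7 cerebella (-1.27 ± 0.27, 2.42-fold, adjusted p 0.00689) and than in SHH MB (-1.28 ± 0.27, 2.43-fold, adjusted p 0.00903). SHH MB and P7 cerebella differed by -0.02 ± 0.64 (adjusted p 0.997). The high level in tumor 1 went with its high sums for Purkinje cells, mature granule neurons and oligodendrocytes, and their part in it was not tested. The noncoding RNA Dino overlaps 504 exonic bases of Cdkn1a on the opposite strand.

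Cdkn1b, the gene of p27, which restrains the division of GCPs, is on chromosome 6 from 134897364 to 134902476 on the plus strand. It showed no difference that passed the test. Levels were 130.0, 109.9, 36.9 and 73.7 CPM in tumors 1 to 4, 105.0, 78.3 and 77.2 CPM in P7 cerebella and 82.5, 96.1 and 93.1 CPM in SHH MB. Only the tumors spread widely, with tumor 1 above and tumor 3 below all other libraries. The log2 fold changes were 0.01 ± 0.36 (SE, adjusted p 0.986 by edgeR) against P7 cerebella, -0.05 ± 0.36 (adjusted p 0.955) against SHH MB and 0.06 ± 0.38 (adjusted p 0.984) for SHH MB over P7 cerebella. Without tumor 1 the values for the tumors were -0.35 ± 0.31 (adjusted p 0.464) against P7 cerebella and -0.43 ± 0.31 (adjusted p 0.467) against SHH MB. Per kb of exon, Cdkn1b was the most abundant of the CIP/KIP inhibitors in every library, with 49.8% to 77.2% of their sum. The sum of the CIP/KIP inhibitors in CPM did not separate the groups in any comparison (exact permutation test, p = 0.6, 0.657 and 0.6, adjusted p 0.655 to 0.657). Without tumor 1, the log2 sum in the tumors differed from P7 cerebella by -0.71 and from SHH MB by -0.63.

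Of the INK4 inhibitors, Cdkn2c encodes p18, which cycling precursors of the cerebellum express. Its position is 109517957 to 109524386 on chromosome 4, minus strand. P7 cerebella had 23.4, 23.3 and 20.7 CPM and SHH MB 33.0, 39.5 and 35.5 CPM. Tumors 2 and 3 (37.8 and 30.7 CPM) were above all P7 cerebella, and tumors 1 and 4 (8.85 and 7.38 CPM) below all libraries of the other groups. No difference passed the test in the fit of all libraries (-0.08 ± 0.48, SE, adjusted p 0.92 against P7 cerebella, -0.76 ± 0.47, adjusted p 0.401 against SHH MB, and 0.68 ± 0.51, adjusted p 0.775 for SHH MB over P7 cerebella, by edgeR). Without tumor 1, tumors differed by 0.08 ± 0.42 (adjusted p 0.903) from P7 cerebella and by -0.62 ± 0.42 (adjusted p 0.443) from SHH MB. Tumors 1 and 4 were also the tumors with the lowest Ccnd2.

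Cdkn2a encodes p16Ink4a, which binds CDK4 and CDK6, and from another start p19Arf, which stabilizes p53. Counts per gene do not separate these products. It lies on chromosome 4 from 89192708 to 89212890 on the minus strand. Tumors 1 to 4 gave 2, 10, 15 and 12 counts of it, P7 cerebella 9, 23 and 24, and SHH MB 12, 11 and 6. Tumor 1 was under the floor of 3 counts, and the remaining libraries had 0.845 to 3.40 CPM. The groups overlapped in all comparisons, and at this depth no difference was detectable (-0.59 ± 0.60, SE, adjusted p 0.533 for tumors over P7 cerebella and 0.17 ± 0.63, adjusted p 0.91 for tumors over SHH MB, by edgeR). Without tumor 1 these values were -0.42 ± 0.59 (adjusted p 0.649) and 0.32 ± 0.61 (adjusted p 0.822). Of the 11 member windows, the first start of Cdkn2a alone held 1 of the E2F sites searched on both strands (TTTCCCGC, TTTGGCGC, TTTCGCGC and TTTGCCGC), which were present in 1.86% of all windows.

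Beyond the members, 35 other genes of the G1/S pathway were examined, all of them tested. Against P7 cerebella, 3 were higher and none lower in the tumors, beside 3.99% and 2.27% of all genes. These were Ccne2, a cyclin E that activates CDK2 (1.3 ± 0.31, SE, adjusted p 0.031 by edgeR), Cdc25a, a phosphatase that activates CDK2 (1.28 ± 0.32, adjusted p 0.0362), and Mnat1, a subunit of the CDK-activating kinase (1.21 ± 0.30, adjusted p 0.0335), all without overlap of the groups. Ccne2 was at 32.9, 18.2, 18.3 and 18.99 CPM in tumors 1 to 4 and at 10.9, 7.15 and 8.63 CPM in P7 cerebella. The median log2 fold change of the list was 0.67, beside -0.05 over all genes, and 31 of 35 were above 0. Against SHH MB, 2 were higher, Mnat1 (1.20 ± 0.30, adjusted p 0.0371) and Fbxo31, which directs cyclin D1 to degradation (1.40 ± 0.33, adjusted p 0.0298), and none was lower, beside 2.43% and 2.26% of all genes, with a median of 0.12. Fbxo31 was at 108.8, 71.9, 37.1 and 63.9 CPM in the tumors and 25.3, 26.8 and 27.9 CPM in SHH MB. Among the tumors, Fbxo31 and the sum of the mature granule neuron list were both highest in tumor 1 and lowest in tumor 3. That list summed to 7497, 2418, 319.1 and 1449 CPM in tumors 1 to 4 and to 296.7 to 400.3 CPM in SHH MB. The part of this list in the Fbxo31 result was not tested. None was called between SHH MB and P7 cerebella by edgeR or DESeq2 (median 0.38). Of the 35, 4 had an unadjusted p under 0.05 by edgeR in this comparison, beside 2636 of all 29952 genes. The fit of these groups alone called 22, of which 20 were higher and 2 lower in SHH MB, beside 13.4% and 10.3% of all genes.

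Without tumor 1, 14 of the 35 genes passed the test against P7 cerebella, 13 higher and 1 lower, beside 9.64% and 6.11% of all genes. Against SHH MB, 4 were higher and 1 lower, beside 5% and 4.75% of all genes, and for SHH MB over P7 cerebella 6 were higher and none lower, beside 2.86% and 1.19%. Of the 10 genes of the cycling-cell list, 8 were called higher in the same fit both in the tumors and in SHH MB over P7 cerebella. With all libraries none of the 10 was called in either comparison. The part of this list in the counts was not tested. Against P7 cerebella, Ccne2 (0.96, adjusted p 0.0172 by edgeR), Cdc25a (1.38, adjusted p 0.00204) and Mnat1 (0.94, adjusted p 0.0214) were called without tumor 1 as well, and so were Mnat1 (0.91, adjusted p 0.0356) and Fbxo31 (0.98, adjusted p 0.0176) against SHH MB. The largest increases over P7 cerebella were those of Cks1b and Skp2, which mark p27 for degradation (1.82 and 1.56, adjusted p 0.00037 and 0.00326 by edgeR), and of Tfdp1, the partner of E2F factors (1.46, adjusted p 0.00086). Cks1b had 55.7, 39.3 and 58.1 CPM in tumors 2 to 4, 3.69 CPM in tumor 1 and 11.48 to 17.3 CPM in P7 cerebella. The gene that was lower was Cdkn2d, another INK4 inhibitor (-1.56, adjusted p 0.0131), with 11.4, 3.05 and 6.29 CPM in tumors 2 to 4, 27.3 CPM in tumor 1 and 15.5 to 23.1 CPM in P7 cerebella. Tumor 1 thus stood on the other side of the P7 cerebella for Cks1b and Cdkn2d, as it did for Cdk4, Cdk6 and Cdkn1a.

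Over the 10 libraries, the genes with the pattern most like each member were found by the root mean square difference of centred log2 levels among 13201 genes. For Ccnd1 these were Lama5 (0.42) and Ptch1 (0.47), the receptor and target gene of SHH, which was at 10.12 to 10.54 log2 CPM in SHH MB and 7.85 to 7.94 in P7 cerebella. Among the tumors, both Ptch1 (8.92 log2 CPM) and Ccnd1 (7.05 log2 CPM) were highest in tumor 4. In tumors 1 to 3 their order differed, with Ptch1 at 7.53, 8.04 and 6.88 and Ccnd1 at 5.57, 4.83 and 5.21 log2 CPM. Cdk4 was closest to Cenpa (0.12), a centromere protein of dividing cells, and Isoc1 (0.17). Ccnd2 was closest to H2bc7 (0.47) and D430019H16Rik (0.59), Ccnd3 to Maml1 (0.13) and 2410002F23Rik (0.17), and Cdk6, after Gm29868, to the neural transcription factor Pou3f2 (0.51). Cdkn1a was closest to LOC118567801 (0.20) and Btg1 (0.23), an inhibitor of proliferation, which in tumor 1 stood at 8.16 log2 CPM against 4.602 to 6.13 in tumors 2 to 4. For Cdkn1b they were Klhl28 and Trim35 (both 0.12), for Cdkn1c Vxn (0.24) and the GABA receptor subunit Gabrg1 (0.28), for Cdkn2a Zfp341 (0.31) and Zfp831 (0.32), and for Cdkn2c Gm5089 (0.19) and Zfpm1 (0.33). These values describe libraries that share tumor 1 and carry no test.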

How the data were processed

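RNA of 4 MYC/SMARCA4 tumors, 3 P7 cerebella and 3 SHH MB was analysed, with groups taken from the labels. The authors depleted ribosomal RNA, prepared CORALL libraries, trimmed reads with Trimmomatic 0.38.1, aligned them to GRCm39 with STAR 2.7.8a and counted them per gene with featureCounts 2.0.1. The deposited counts are raw. The authors also deposited VST values of DESeq2 on a log2 scale, which served as an alternative.

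All 10 libraries entered 1 fit of edgeR 4.0.16 (R 4.3.3) with a mean per group, TMM factors and filterByExpr, and p-values were adjusted by the Benjamini-Hochberg method over 29952 genes. Levels are log2 CPM with a prior count of 2. For ratios and sums of members, exact permutation tests (two-sided) were used. Alternatives were DESeq2 1.42.0, limma 3.58.1, RLE factors, other filters, samples, library sizes and call rules, a replicate block, a prior count of 0.5 and each library left out. Scripts were tested on simulated data. Positions come from GENCODE M39, promoter sequences from RefSeq. Named genes are the members, up to 3 called pathway genes in each direction per comparison, the 2 genes nearest to each member, and markers; pathway genes called without tumor 1 were chosen after their values were seen. The members, lists and tests were chosen with earlier results of these data known. The labels do not say how the samples of a group were raised, so that p-values measure the spread between these samples. The floor of 3 counts covers counting error only, the SD is that between libraries, and the SE is that of the fitted model.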

Additional observations from a re-analysis of the deposited data

Results flagged for a closer look

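Of 14 values checked in the group of 4 tumors (the levels of the 10 genes and the 4 ratios and sums), 1 had a sample far from the others. The level of Cdk4 in tumor 1 was 4.62 log2 CPM, and its gap to the nearest tumor was 0.853 of the range of the group, above Dixon's 95% critical value for 4 samples. Chance flags about 1 in 20 groups, so that 1 flag among 14 checked values can arise by chance. The summed level of the cycling-cell list was lowest in the same library, at 133.9 CPM.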

How the results depend on the processing

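Directions and sides of the threshold were compared over 19 alternatives for a gene and 21 for a count of called genes. Of 126 such counts, 74 lay within 1.5 times the reported count and 52 did not. Of 567 log2 fold changes of members, 469 kept their direction and side, 15 came to pass the test, 10 no longer did and 73 changed sign. For tumors against P7 cerebella, 0 members were called with these groups alone and under both stricter rules (log2 fold change of at least 1.5 or 2.5, adjusted p of at most 0.01), and 0 to 4 members with 1 library left out (4 without tumor 1, 0 without any P7 cerebellum). For tumors against SHH MB, DESeq2 called 3 members and a minimum of 10 counts in every library gave 2, with 1 to 4 when a library was left out (4 without tumor 1). For SHH MB over P7 cerebella, DESeq2 called 2 members, the fit of these groups alone 7 and both stricter rules 0, with 0 to 2 when a library was left out (2 without tumor 1, 0 without any SHH MB or P7 cerebellum). Of the pathway genes, DESeq2 called 9 against P7 cerebella, and 0 were called with these groups alone and under the stricter rules, with 0 to 14 when a library was left out (14 without tumor 1, 12 without tumor 3, 1 without tumor 2, 0 without any SHH MB or P7 cerebellum). Against SHH MB, 0 were called by limma, with these groups alone and under the stricter rules, and 1 without a filter, with 0 to 7 when a library was left out (7 without tumor 3, 5 without tumor 1, 0 without tumor 2 or any SHH MB). For SHH MB over P7 cerebella, 22 were called with these groups alone and 0 to 6 with a library left out (6 without tumor 1). The calls over all genes moved too. For tumors against P7 cerebella they were 1194 higher and 680 lower with all libraries and 3127 and 1496 by DESeq2. With these groups alone they were 58 and 171, and 3381 and 6551 without tumor 3. Against SHH MB they were 727 and 676, 402 and 639 by limma, and 88 and 300 with these groups alone. For SHH MB over P7 cerebella they were 53 and 14, 3884 and 2999 with these groups alone, and 0 without any P7 cerebellum. The causes were not tested.

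Same-numbered samples did not deviate together (correlations of -0.27 to 0.16), so the numbers do not pair the samples. With the replicate block, 0 pathway genes were called against either group, and the counts of members did not move. Over all genes, the block called 165 higher and 206 lower against P7 cerebella, and 231 and 400 against SHH MB. Under the block, tumors over P7 cerebella gave log2 fold changes of -0.61 for Ccnd1, -0.13 for Cdk6, -0.24 for Cdkn1a, -0.0091 for Cdkn1b and 0.068 for Cdkn2c, and tumors over SHH MB -0.33 for Ccnd3, -0.34 for Cdk4, -0.22 for Cdkn1a and -0.047 for Cdkn2a.

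All 73 changes of sign were in log2 fold changes that had not passed the test with all libraries. By limma on the deposited values, tumors over P7 cerebella gave -0.11 for Ccnd1, -0.44 for Cdkn1a and -0.066 for Cdkn1b, and tumors over SHH MB -1.08 for Ccnd2, -0.043 for Ccnd3, -0.32 for Cdk4 and -0.45 for Cdkn1a. With at least 10 counts in every library, the values were -0.19 for Ccnd1, -0.35 for Cdkn1a and -0.31 for Cdkn1b over P7 cerebella, -0.036 for Ccnd2, -0.17 for Ccnd3, -0.066 for Cdk4 and -0.25 for Cdkn1a over SHH MB, and -0.015 for Cdkn1b in SHH MB over P7 cerebella, and Cdkn2a had no value. With only the groups compared, they were -0.036 for Ccnd1, -0.22 for Cdkn1a and -0.14 for Cdkn1b over P7 cerebella, and -0.043 for Ccnd3 and -0.045 for Cdkn1a over SHH MB. Cdkn1a in SHH MB over P7 cerebella was 0.017 by DESeq2 and by RLE factors, 0.0077 by limma, 0.033 without a filter and 0.0051 with these groups alone. With 1 library left out, the log2 fold change of tumors over P7 cerebella ran from -0.71 to 0.34 for Ccnd1, from -1.27 to 0.25 for Cdkn1a, from -0.35 to 0.092 for Cdkn1b and from -0.51 to 0.21 for Cdkn2c. That of tumors over SHH MB ran from -0.88 to 0.45 for Ccnd2, from -0.38 to 0.11 for Ccnd3, from -0.13 to 0.32 for Cdk4, from -1.28 to 0.27 for Cdkn1a, from -0.43 to 0.048 for Cdkn1b and from -0.15 to 0.45 for Cdkn2a. That of SHH MB over P7 cerebella ran from -0.11 to 0.088 for Cdkn1a and from -0.0196 to 0.21 for Cdkn1b.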
